A study of Mus musculus with 32 samples.

Results

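Carboxylesterases are serine hydrolases that cut ester bonds in lipids, drugs and other xenobiotics, most of them inside the endoplasmic reticulum. The liver is their main site in the mouse, where they take part in triglyceride turnover, lipoprotein assembly and detoxification, and Ces1d and Ces1f also act as triglyceride hydrolases in adipocytes. The data here are the expression values of 10 carboxylesterase genes, *Ces1b*, *Ces1d*, *Ces1e*, *Ces1f*, *Ces1g*, *Ces2a*, *Ces2c*, *Ces2e*, *Ces3a* and *Ces3b*, of 24646 genes in all, in liver and 3 fat depots of *Gpr146*-/- mice. The genes were picked by name with knockout-against-wild-type results of these arrays already in view, and all 10 were found in every tissue. Their genotype differences are therefore given as a description, and no conclusion is drawn from the test calls given for them below.

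The mice were male littermates on a C57BL/6J background and 20 weeks of age. All had eaten a high-fat diet (HFD) for 3 months and were fasted overnight. They were either wild-type at *Gpr146* or carried a whole-body deletion of it, so that the loss was not limited to 1 tissue. Their liver and 3 fat depots were studied, namely epididymal white fat (eWAT), inguinal white fat (iWAT) and brown fat (BAT). Each sample was run on 1 Affymetrix Mouse Gene 2.1 ST array, with 4 wild-type and 4 knockout mice per tissue and 32 arrays in all. The authors deposited normalized log2 values, 1 per gene symbol and mouse, in which a difference of 1 is a doubling.

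*Gpr146* was lower in all 4 knockout mice than in all 4 wild-type mice in each tissue, with log2 differences of -1.77 in liver, -1.53 in eWAT, -1.55 in iWAT and -1.16 in BAT. The titles of the knockout livers also carry the letters WT, but their genotype labels say knockout, which was followed here. *Alb* was at 11.85 to 11.96 in liver and *Ucp1* at 11.03 to 11.59 in BAT. The summed adipocyte genes reached 12.35 to 13.31 in white fat and 12.42 to 12.68 in BAT, so they did not tell the fat depots apart. Of the iWAT arrays, wild-type 1, wild-type 2 and knockout 2 had summed B and T lymphocyte genes of 10.55 to 10.77, against 5.95 to 8.34 in the others. Of the BAT arrays, wild-type 2, wild-type 3 and knockout 2 had summed skeletal muscle genes of 10.01 to 10.92, against 5.58 to 6.59 in the others. A summed level is the log2 of the sum of the linear values of a marker list. In bulk tissue, fewer cells of a type and less RNA per cell cannot be told apart, and precision is limited by the number of mice. Within a tissue, replicates were separate mice. The labels number the mice of each genotype 1 to 4 in every tissue, so arrays of different tissues may come from the same animals.

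The family lies in 2 clusters on mouse chromosome 8. In the order of the GRCm38.p6 annotation, *Ces1a* to *Ces1h* and *Ces5a* follow each other with no other coding gene between them, and 68 coding genes separate them from the run of *Ces2a* to *Ces2h*, *Ces3a*, *Ces3b* and *Ces4a*. RefSeq (GRCm38.p6) promoter windows were matched for 7 of the 10 genes, not for *Ces1d*, *Ces1f* and *Ces3a*. Shown here are the 250 bases before the start site of *Ces2a* and *Ces2c*, which lay on opposite sides of wild-type in knockout liver, and of *Ces2g*, the other family gene that differed in eWAT. They lie on the plus strand at chr8:104733753-104734002 (*Ces2a*), chr8:104846818-104847067 (*Ces2c*) and chr8:104961468-104961717 (*Ces2g*).
Ces2a: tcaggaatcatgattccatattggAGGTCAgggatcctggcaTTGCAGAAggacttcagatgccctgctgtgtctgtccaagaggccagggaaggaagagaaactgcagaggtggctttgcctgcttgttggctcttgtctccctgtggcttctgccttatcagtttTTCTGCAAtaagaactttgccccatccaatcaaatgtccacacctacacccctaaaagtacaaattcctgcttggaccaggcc
Ces2c: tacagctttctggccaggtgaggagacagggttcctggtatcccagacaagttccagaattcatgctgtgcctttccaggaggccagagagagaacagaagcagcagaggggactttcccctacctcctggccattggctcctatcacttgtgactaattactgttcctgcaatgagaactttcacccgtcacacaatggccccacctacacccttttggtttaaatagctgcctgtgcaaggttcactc
Ces2g: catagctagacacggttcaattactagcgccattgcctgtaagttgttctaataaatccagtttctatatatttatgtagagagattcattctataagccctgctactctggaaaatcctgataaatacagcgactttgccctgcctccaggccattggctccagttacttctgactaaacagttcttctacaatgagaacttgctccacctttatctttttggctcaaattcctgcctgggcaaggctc
Capitals mark matches, on either strand, to the nuclear receptor half-site AGGTCA or the C/EBP-type site TTGCNNAA. *Ces2a* held 1 half-site and 2 C/EBP-type sites, with no overlap between them, and *Ces2c* and *Ces2g* held neither. Of 32851 promoter windows of the same length, 14.0% held AGGTCA and 9.56% held TTGCNNAA. The HNF4-type site CAAAGTCCA, held by 0.384% of windows, and the TATA box TATAAA, held by 12.4%, were also searched, and neither was in these 3 windows. Of the 10 genes, *Ces1b* and *Ces2e* also held the C/EBP-type site but not AGGTCA, and their liver differences were 0.18 and -0.23. A match is only a match of letters. After alignment, *Ces2a* and *Ces2c* were identical at 166 of 243 aligned bases (68.3%), *Ces2a* and *Ces2g* at 146 of 212 (68.9%) and *Ces2c* and *Ces2g* at 158 of 223 (70.9%). Gaps were not counted among the aligned bases. Unrelated windows were not aligned, so no background share stands beside these values.

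All 10 genes were above the median gene of the table in liver, which stood at 3.02 on the log2 scale. *Ces1d*, *Ces1f* and *Ces1b* were the only ones of the 10 that were clearly above it in every tissue. *Ces3a* lay close to the median in eWAT and iWAT. Its group means were 3.25 in both genotypes of eWAT against a median of 3.16, and in iWAT 3.64 in wild-type and 3.80 in knockout mice, on either side of a median of 3.70. The other genes were below the median in the fat depots, 6 of 10 in eWAT, 6 of 10 in iWAT and 7 of 10 in BAT, where their values lay between 1.08 and 3.36. The tables give no detection call, so such dim values could not be told from background, and small differences between them carry little weight. The 4 tables were normalized separately, so levels are compared between tissues only in this coarse way. The plot of values by mouse gives each of the 80 gene and group combinations.

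**Figure D1:**
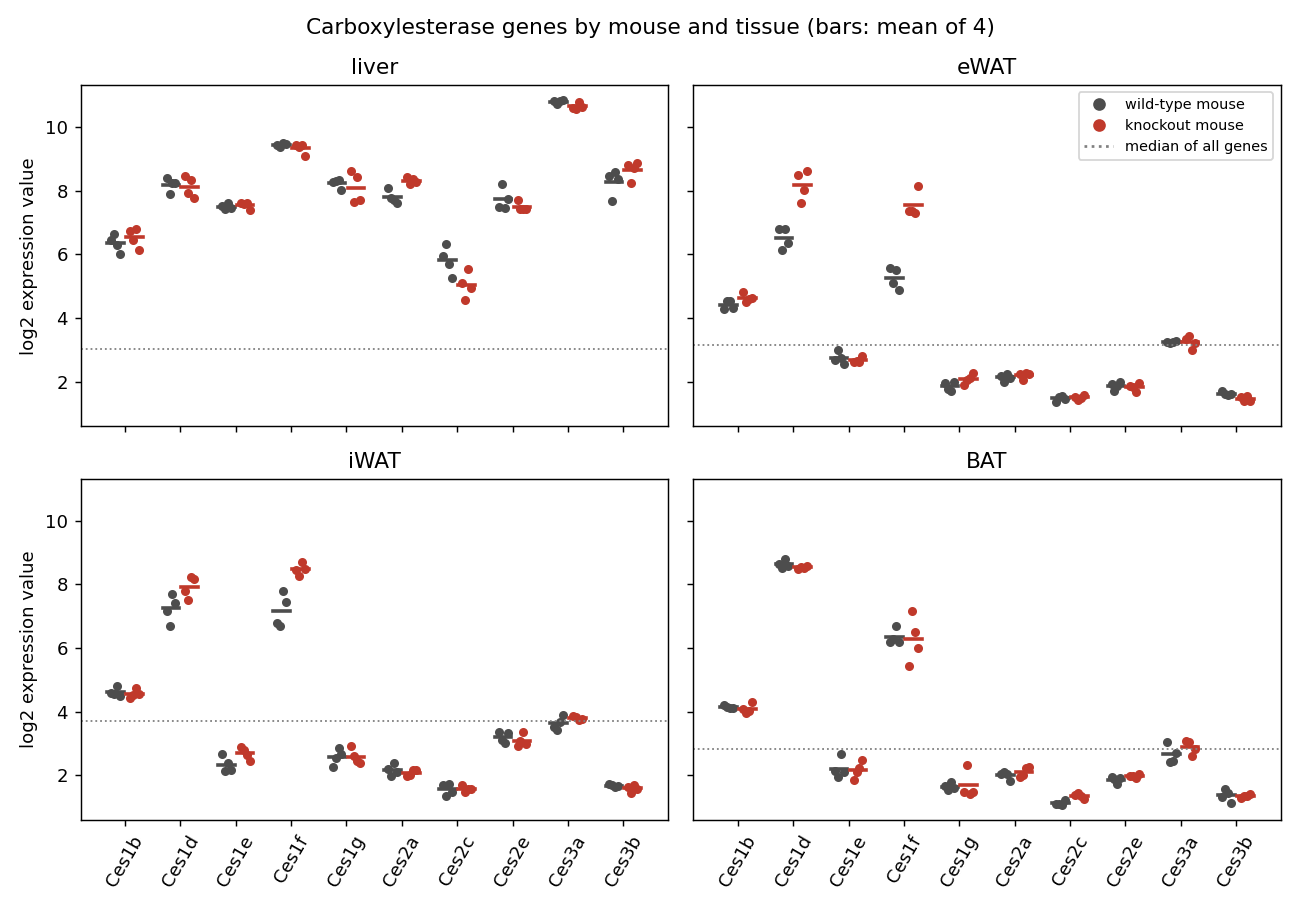
Log2 expression values (y axis) of the 10 carboxylesterase genes (x axis) in 4 wild-type (grey) and 4 knockout (red) mice per tissue, with bars at the group means and a dotted line at the median of all genes of the table. In eWAT the knockout values of Ces1d and Ces1f lie above all wild-type values, while in liver and BAT the genotypes overlap for both genes.

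*Ces1f* (probe set 17511731), a triglyceride hydrolase of hepatocytes and adipocytes, had the largest genotype difference of the 10 genes. In eWAT it measured 5.57, 5.09, 5.49 and 4.87 in the wild-type mice and 7.35, 7.36, 7.29 and 8.13 in the knockout mice. Every knockout mouse was at least 1.72 log2 units above every wild-type mouse, and knockout 4 stood apart at the top. The mean went from 5.26 ± 0.33 (SD, n = 4) to 7.53 ± 0.40 (SD, n = 4), a log2 difference of 2.28 (standard error 0.22), or 4.85-fold. In iWAT, *Ces1f* measured 6.77, 6.69, 7.78 and 7.44 in wild-type mice and 8.45, 8.27, 8.71 and 8.50 in knockout mice. These groups did not overlap either, and the difference was 1.31 (standard error 0.24), or 2.48-fold. The wild-type mice spread over more than 1 log2 unit there, and the lower pair, wild-type 1 and 2, were the arrays with lymphocyte genes. Without the 3 lymphocyte-rich arrays the difference of *Ces1f* was 0.94, with 2 wild-type and 3 knockout arrays left.

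*Ces1d* (probe set 17511693), the triacylglycerol hydrolase that mobilizes stored fat in hepatocytes and adipocytes, showed the next largest difference. In eWAT it measured 6.80, 6.13, 6.79 and 6.35 in the wild-type mice and 8.49, 7.60, 8.02 and 8.63 in the knockout mice. The groups did not overlap, and their means were 6.52 ± 0.33 and 8.18 ± 0.47 (SD, n = 4 each), a log2 difference of 1.67 (standard error 0.24), or 3.18-fold. In iWAT, *Ces1d* measured 7.17, 6.68, 7.70 and 7.43 in wild-type mice and 7.79, 7.50, 8.25 and 8.16 in knockout mice. Knockout 2, one of the lymphocyte-rich arrays, lay among the wild-type values, and the difference of 0.68 (standard error 0.24) was 0.50 without the 3 lymphocyte-rich arrays. Leaving out any single eWAT array kept the difference of *Ces1d* there between 1.52 and 1.86 and that of *Ces1f* between 2.08 and 2.38.

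In BAT and liver the same 2 genes lay close to wild-type. *Ces1d* in BAT measured 8.64, 8.52, 8.78 and 8.57 in wild-type mice and 8.49, 8.54, 8.52 and 8.57 in knockout mice, a difference of -0.10 (standard error 0.08). *Ces1f* in BAT measured 6.19, 6.28, 6.70 and 6.20 in wild-type mice and 5.43, 7.17, 6.50 and 6.01 in knockout mice. Its knockout values spread wider than the wild-type ones and enclosed them, with a difference of -0.07 (standard error 0.30). The highest value of each genotype, wild-type 3 and knockout 2, came from an array with muscle genes, and without the 3 muscle-rich arrays the difference was -0.22. In liver, *Ces1d* measured 8.39, 7.89, 8.24 and 8.23 in wild-type mice and 8.46, 7.92, 8.33 and 7.77 in knockout mice, and *Ces1f* lay between 9.37 and 9.48 in wild-type mice and between 9.10 and 9.44 in knockout mice. Their liver differences were -0.07 (standard error 0.16) and -0.10 (standard error 0.09). Whether the differences of the tissues differ from each other was not tested, since the genes were selected with these contrasts known.

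**Figure D2:**
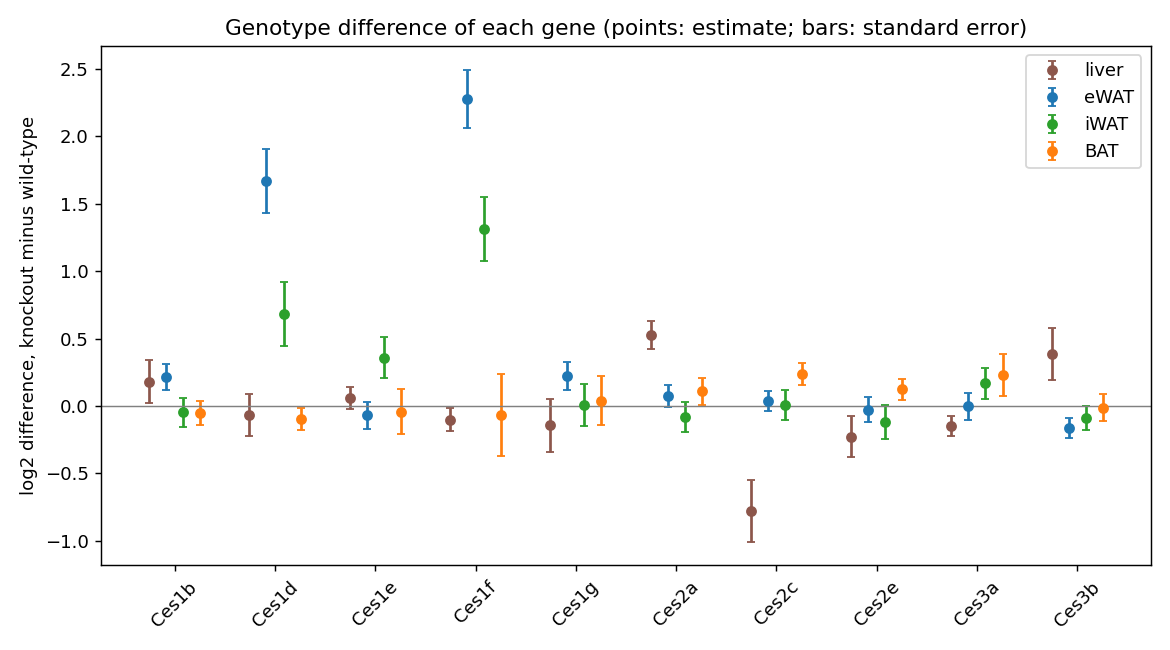
Log2 difference between knockout and wild-type mice (y axis, limma estimate with its standard error) for each of the 10 genes (x axis) in liver, eWAT, iWAT and BAT, with 4 mice per genotype. Ces1d and Ces1f reach 1.67 and 2.28 in eWAT, and Ces2a and Ces2c lie on opposite sides of 0 in liver.

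Marker genes of other cell types moved with genotype in eWAT, and these are set beside *Ces1d* and *Ces1f*. The summed macrophage genes lay at 12.06 to 12.23 in wild-type mice and at 9.71 to 11.78 in knockout mice, and 7 of 7 measured genes of the list fell. The summed adipocyte genes went the other way, from 12.35 to 12.58 up to 12.87 to 13.21, and 6 of 7 genes rose while *Lep*, the leptin gene, fell. All 4 fibroblast genes and 2 of 4 mesothelium genes fell as well. These rises and falls were calls by limma, which called 15.2% of all genes in eWAT, where 29.8% had an unadjusted p below 0.05. Knockout 2, which kept the most macrophage signal of the knockout mice at 11.78, also had the lowest *Ces1d* of its genotype at 7.60, whereas its *Ces1f* of 7.36 was the second highest. Without that array the eWAT differences were 1.86 for *Ces1d* and 2.34 for *Ces1f*. The summed hepatocyte genes were low in eWAT, at 5.69 to 6.04 in wild-type and 5.86 to 6.33 in knockout mice, with 0 of 8 genes called by limma and 3 of 8 at an unadjusted p below 0.05, and *Alb* lay between 3.76 and 5.27. In iWAT the summed adipocyte genes lay at 12.79 to 13.12 in wild-type mice and at 13.04 to 13.31 in knockout mice, and the macrophage genes at 10.55 to 11.05 and 9.26 to 10.68. The part of these cell types in the carboxylesterase values was not tested.

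**Figure D3:**
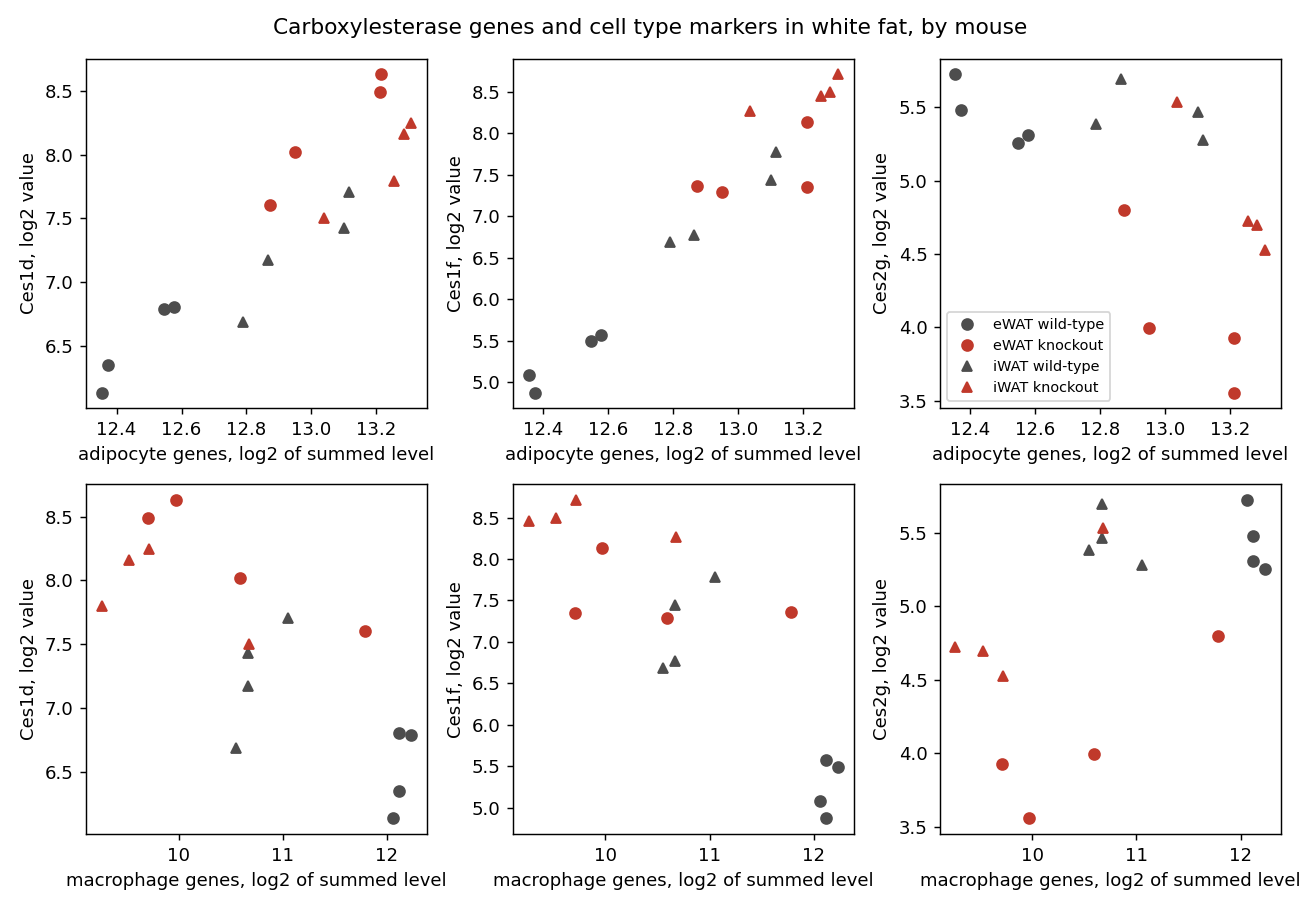
Log2 values of Ces1d, Ces1f and Ces2g (y axes) against the log2 of the summed adipocyte (upper row) or macrophage (lower row) marker genes (x axes) in eWAT (circles) and iWAT (triangles) of wild-type (grey) and knockout (red) mice, 1 point per mouse. The eWAT wild-type mice sit at adipocyte sums of 12.35 to 12.58 and macrophage sums of 12.06 to 12.23, apart from the knockout mice on both axes.

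The remaining 8 genes lay within 0.36 log2 units of wild-type on average in the 3 fat depots. *Ces1b*, a gene of the first cluster, was at 4.29 to 4.55 in wild-type and 4.50 to 4.80 in knockout eWAT, overlapping, with a difference of 0.21 (standard error 0.10). *Ces3a*, an esterase abundant in liver, differed by -0.003 in eWAT and 0.17 in iWAT. The largest differences of the others came from dim genes, 0.36 for *Ces1e* in iWAT and 0.24 for *Ces2c* in BAT. The dim values of *Ces3b* in eWAT, at 1.57 to 1.70 in wild-type and 1.39 to 1.55 in knockout mice, did not overlap, nor did those of *Ces2c* in BAT, at 1.08 to 1.24 and 1.27 to 1.44.

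Among the 10 genes, the largest differences of the second cluster were those of *Ces2a* and *Ces2c* in liver. *Ces2a* (probe set 17504477), a microsomal esterase that also hydrolyses acylglycerols, measured 8.07, 7.76, 7.69 and 7.62 in wild-type livers and 8.43, 8.20, 8.37 and 8.26 in knockout livers. All knockout livers were above all wild-type livers, and the closest pair, wild-type 1 and knockout 2, were 0.12 apart. The means were 7.79 ± 0.20 and 8.32 ± 0.11 (SD, n = 4 each), a log2 difference of 0.53 (standard error 0.10), or 1.44-fold. *Ces2c* (probe set 17504512), a neighbour of *Ces2a* that hydrolyses acylcarnitines, diglycerides and triglycerides, lay on the other side. It measured 5.94, 6.34, 5.71 and 5.27 in wild-type livers and 5.10, 4.58, 5.53 and 4.94 in knockout livers. Knockout 3 was above wild-type 4, so the groups overlapped, and the difference was -0.78 (standard error 0.23), with knockout livers at 0.583 of wild-type. Leaving out any single liver array kept the difference of *Ces2a* between 0.47 and 0.62 and that of *Ces2c* between -0.96 and -0.60. As printed above, the windows before these 2 genes matched at 68.3% of aligned bases, with no background share to set beside it.

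*Ces2e* measured 7.49, 8.21, 7.46 and 7.73 in wild-type livers and 7.72, 7.43, 7.43 and 7.41 in knockout livers, and each genotype held 1 liver well above its others. Its difference was -0.23 (standard error 0.15). *Ces3b*, a liver esterase near the end of the second cluster, measured 8.46, 7.66, 8.59 and 8.37 in wild-type livers and 8.80, 8.24, 8.70 and 8.87 in knockout livers. Wild-type 2 was low and the groups overlapped, with a difference of 0.38 (standard error 0.20). *Ces3a*, another liver esterase, lay at 10.71 to 10.83 in wild-type and 10.57 to 10.77 in knockout livers, a difference of -0.15 (standard error 0.07). In the first cluster, *Ces1e*, known for holding beta-glucuronidase in the endoplasmic reticulum, differed by 0.06 and *Ces1b* by 0.18. *Ces1g*, which is linked to hepatic triglyceride secretion, measured 8.27, 8.30, 8.35 and 8.03 in wild-type livers and 8.60, 7.64, 8.41 and 7.71 in knockout livers. Knockout 2 and 4 were low and knockout 1 and 3 high. Knockout 1 and 3 also lay above knockout 2 and 4 for *Ces1b*, *Ces1d*, *Ces1e*, *Ces1f*, *Ces2a*, *Ces2c* and *Ces2e*. The gap was narrow for *Ces2e*, at 7.4335 in knockout 3 against 7.4281 in knockout 2. *Ces3a* and *Ces3b* did not have this split. The difference of *Ces1g* was -0.14 (standard error 0.20).

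Marker genes of liver cell types are set beside these values. The summed Kupffer genes lay at 7.26 to 8.60 in wild-type and 6.05 to 7.40 in knockout livers, with 0 of 4 called by limma and 4 of 4 at an unadjusted p below 0.05. Of the endothelial genes, 3 of 4 fell as called by limma. Over all genes, limma called 0.661% in liver, and 13.3% had an unadjusted p below 0.05. The summed hepatocyte genes were 13.80 to 13.88 in wild-type and 13.89 to 13.96 in knockout livers, with 0 of 8 called by limma and 1 of 8 at an unadjusted p below 0.05. The part of these cells in the liver values of *Ces2a* and *Ces2c* was not tested.

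Across all genes, limma, which fits a linear model per gene and shares information on the spread between genes, called 0.661% of genes in liver, 15.2% in eWAT, 0% in iWAT and 0.0284% in BAT at a Benjamini-Hochberg adjusted p below 0.05. *Gpr146* itself, the deleted gene, passed in liver and eWAT. It did not pass in iWAT (adjusted p = 0.22 from limma) or BAT (adjusted p = 0.073 from limma). Of the 10 carboxylesterases, 0 were called in liver, 2 in eWAT (*Ces1d* and *Ces1f*), 0 in iWAT and 0 in BAT. At an unadjusted p below 0.05 from limma the counts were 2, 3, 3 and 1, beside 13.3% of all genes in liver, 29.8% in eWAT, 15.4% in iWAT and 12.7% in BAT. The methods' t-test with the same adjustment called 0 of the 10 in each tissue. Groups that did not overlap made up 7.78% of all genes in liver, 21.6% in eWAT, 8.15% in iWAT and 7.23% in BAT, beside 1, 3, 1 and 1 of the 10 genes. Nothing is read from these counts, because the genes were selected on the same contrasts. The median log2 difference of the 10 was -0.09 in liver, 0.05 in eWAT, 0.01 in iWAT and 0.01 in BAT, beside medians of 0.01, 0.03, 0.02 and 0.00 over all genes.

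A list of 9 other family genes, which are not among the 10, was tested with limma over all genes. The pseudogene *Ces2d-ps*, also in the tables, was not on this list. The list was chosen with earlier results of these data known, as were the lists of ester hydrolases and of receptors and factors below. Their calls are therefore no independent support. Of the 9 genes, 1 passed, and in eWAT alone, where limma called 15.2% of all genes. *Ces2g* (probe set 17504572), an esterase gene of the second cluster, measured 5.31, 5.72, 5.25 and 5.48 in wild-type eWAT and 3.93, 4.80, 4.00 and 3.56 in knockout eWAT. All knockout mice were below all wild-type mice, and knockout 2, the array with the most macrophage signal of its genotype, was the highest of them. *Ces2g* fell by 1.37 on the log2 scale (standard error 0.23, adjusted p = 0.010 from limma), to 0.386 of wild-type. It kept this call when any single array was left out. In iWAT *Ces2g* measured 5.69, 5.38, 5.28 and 5.47 in wild-type mice and 4.72, 5.54, 4.53 and 4.70 in knockout mice. Knockout 2, a lymphocyte-rich array, lay among the wild-type mice, and the difference of -0.58 (standard error 0.21) did not pass (adjusted p = 0.27 from limma). Without knockout 2 it passed, but it did not with all 3 lymphocyte-rich arrays left out. Knockout 2 also had the highest summed macrophage genes of the knockout iWAT arrays, at 10.68, against 9.26 to 9.72 in the others. The part of these cells in the *Ces2g* values was not tested. In liver the difference of *Ces2g* was -0.08 (standard error 0.21), and in BAT it was 0.05 (standard error 0.14). *Ces1c*, which encodes the esterase of mouse plasma, was at 10.56 to 10.84 in liver with a difference of 0.10 (standard error 0.08). Apart from *Ces2g*, the genes of this list lay between -0.18 and 0.49 in all 4 tissues, and limma called 0 of 8, while *Ces4a* in eWAT, *Ces1c* in iWAT and *Ces2b* in BAT had an unadjusted p below 0.05. The median of the 9 genes was 0.01 in liver, -0.03 in eWAT, 0.07 in iWAT and 0.03 in BAT. Of the 9, 6 were below the median gene in liver, 8 in eWAT, 8 in iWAT and 7 in BAT. Small differences of these dim genes carry little weight.

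**Figure D4:**
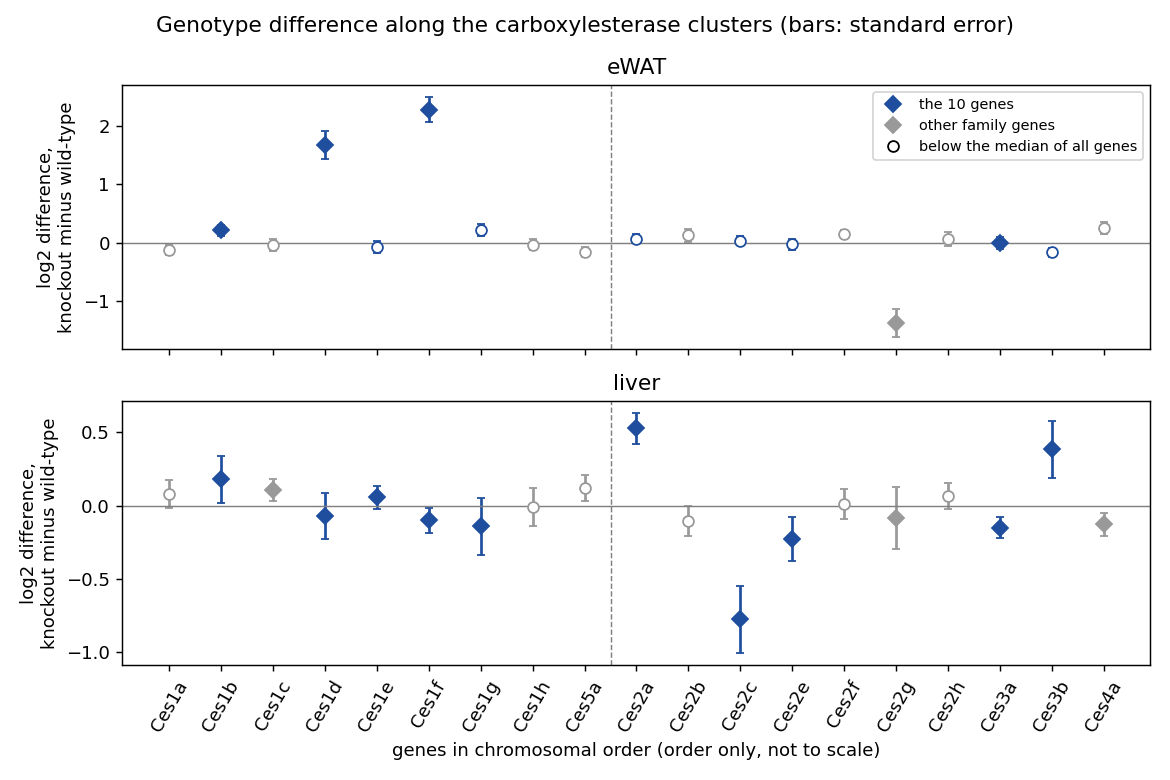
Log2 difference between knockout and wild-type mice with its standard error (y axis) for 19 carboxylesterase genes, the pseudogene Ces2d-ps left out, in their order on the chromosome (x axis, order only), in eWAT (upper panel) and liver (lower panel). Blue marks the 10 genes and grey the other family genes, open circles mark genes below the median of all genes, and the dashed line separates the 2 clusters. In eWAT the direct neighbours of Ces1d, Ces1f and Ces2g lie near 0, but all of them are below the median of all genes, so they could hardly show a difference.

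A loose list of 20 genes, called other ester hydrolases here, was tested in the same way. Not every gene on it encodes an enzyme that mainly cuts esters, *Abhd5* and *Faah* among them. In eWAT 4 rose and 3 fell, and 13 did not pass, where limma called 15.2% of all genes. The median of the list was 0.10 beside 0.03 over all genes. *Lipe*, the hormone-sensitive lipase, measured 7.17, 6.91, 7.12 and 6.95 in wild-type and 7.77, 7.44, 7.60 and 7.84 in knockout mice, and rose by 0.63 (standard error 0.11, adjusted p = 0.010 from limma). *Bche*, butyrylcholinesterase, measured 5.65, 4.62, 5.76 and 4.66 in wild-type and 7.40, 6.40, 6.35 and 7.54 in knockout mice, and rose by 1.75 (standard error 0.36, adjusted p = 0.015 from limma). Both kept the call when any single array was left out. *Pnpla2*, the adipose triglyceride lipase, rose by 0.44 and *Pnpla3*, its relative, by 1.40 (adjusted p = 0.043 for each from limma). Wild-type 4 had a *Pnpla3* of 4.05 against 5.45 to 5.82 in the other wild-type mice, and both genes lost the call when any of 6 of the 8 arrays was left out, which were all but knockout 2 and 3. *Lipa*, the lysosomal acid lipase, measured 10.06, 10.24, 10.26 and 10.24 in wild-type and 7.51, 9.76, 8.31 and 7.74 in knockout mice. It fell by 1.87 (standard error 0.41, adjusted p = 0.018 from limma), and knockout 2, with the most macrophage signal, was closest to wild-type. *Nceh1*, a cholesteryl ester hydrolase of macrophages, had the same order of mice, at 3.29, 5.02, 3.90 and 3.67 in knockout mice against 5.13 to 5.35 in wild-type mice, and fell by 1.29 (adjusted p = 0.022 from limma). *Esd*, esterase D, fell by 1.20 (adjusted p = 0.030 from limma) with overlapping groups. The call of *Lipa* was lost without wild-type 2, wild-type 4 or knockout 4. That of *Nceh1* was lost without any single array other than knockout 2 or 3, and that of *Esd* without wild-type 2, wild-type 4, knockout 1, knockout 3 or knockout 4.

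In liver, 2 of the 20 genes of the ester hydrolase list fell and 18 did not pass, where limma called 0.661% of all genes. The list median was -0.12 beside 0.01 over all genes. *Abhd6*, a monoacylglycerol lipase, measured 6.83, 6.54, 6.88 and 6.74 in wild-type livers and 5.82, 5.50, 6.18 and 5.70 in knockout livers. The groups did not overlap, and *Abhd6* fell by 0.95 (standard error 0.13, adjusted p = 0.013 from limma), a call lost without wild-type 3 or knockout 4. *Mgll*, the main monoacylglycerol lipase, measured 6.58, 6.43, 6.75 and 6.65 in wild-type livers and 6.02, 6.14, 6.25 and 6.00 in knockout livers. It fell by 0.50 (standard error 0.09, adjusted p = 0.037 from limma), a call lost without wild-type 1, wild-type 3, wild-type 4, knockout 1 or knockout 4. In iWAT and BAT limma called 0 of 20, with 5 and 4 at an unadjusted p below 0.05, beside 15.4% and 12.7% of all genes. The 2 liver genes lay near wild-type in eWAT, at 0.23 for *Abhd6* and 0.12 for *Mgll*.

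**Figure D5:**
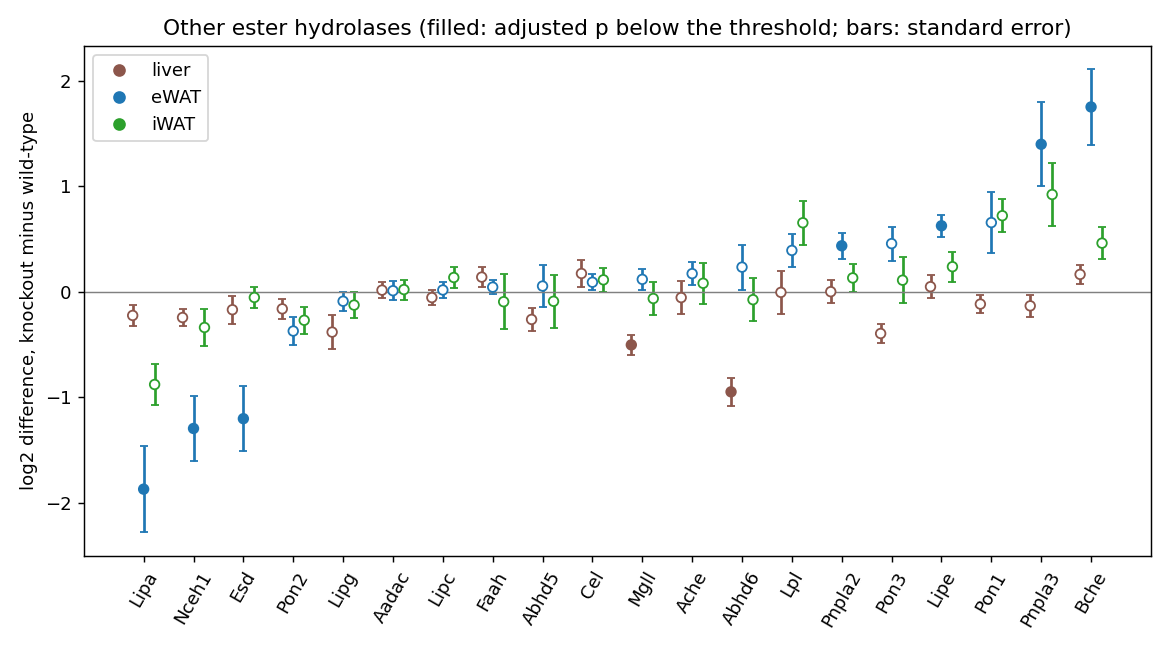
Log2 difference between knockout and wild-type mice with its standard error (y axis) for the 20 genes of the list of other ester hydrolases (x axis, ordered by eWAT) in liver, eWAT and iWAT. Filled points passed an adjusted p below 0.05, which are 2 falls in liver and 3 falls and 4 rises in eWAT.

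Receptors and transcription factors of lipid and drug metabolism were a further list of 20. In eWAT 3 rose, 1 fell and 16 did not pass, where limma called 15.2% of all genes. The list median was 0.03 beside 0.03 over all genes. *Cebpa*, which encodes the adipocyte and hepatocyte factor C/EBPα, measured 8.23, 7.93, 8.10 and 7.88 in wild-type and 9.41, 8.66, 9.26 and 9.31 in knockout mice. It rose by 1.13 (standard error 0.16, adjusted p = 0.0082 from limma) and kept the call when any single array was left out. *Pparg*, the adipocyte nuclear receptor gene, rose by 0.61 and *Ppara* by 0.49 (adjusted p = 0.020 for each from limma). The call of *Pparg* was lost without any single array other than wild-type 1, knockout 2 or knockout 3, and that of *Ppara* without wild-type 2, wild-type 4 or knockout 1. *Nfe2l2*, the gene of the stress factor NRF2, fell by 0.61 (adjusted p = 0.018 from limma), a call lost without wild-type 2, wild-type 3 or knockout 1. *Cebpa* and *Pparg* are themselves high in adipocytes, and the rise of the adipocyte genes given above stands beside them. Their part in the carboxylesterase values was not tested.

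In liver, iWAT and BAT, limma called 0 of the 20 receptors and factors. At an unadjusted p below 0.05 from limma the counts were 4, 2 and 4, beside 13.3%, 15.4% and 12.7% of all genes. The xenobiotic receptor genes *Nr1i2* (PXR) and *Nr1i3* (CAR), known regulators of *Ces2* genes, did not pass in liver. *Nr1i2* measured 7.28, 6.90, 7.10 and 7.02 in wild-type livers and 6.78, 6.68, 6.84 and 6.38 in knockout livers, below in every case, with a difference of -0.41 (adjusted p = 0.14 from limma). *Nr1i3* lay at 8.77 to 9.23 and 8.34 to 9.20, with a difference of -0.26 (adjusted p = 0.57 from limma). *Pparg* in liver lay at 5.49 to 6.38 and 4.76 to 5.48, a difference of -0.92 (adjusted p = 0.062 from limma). *Srebf1*, the gene of the lipogenic factor SREBP-1, measured 6.45, 6.48, 6.09 and 6.04 in wild-type livers and 6.78, 6.96, 6.95 and 6.45 in knockout livers. Knockout 4 lay among the wild-type livers, and the difference was 0.52 (adjusted p = 0.13 from limma). The difference of *Nr1h3*, which encodes the oxysterol receptor LXRα, was -0.22 (adjusted p = 0.28 from limma). The 4 liver genes at an unadjusted p below 0.05 were *Nr1i2*, *Pparg*, *Srebf1* and *Nr1h3*.

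For the 3 carboxylesterases with the largest spread within tissues, the genes most like them were sought over the 32 arrays, after the mean of each tissue was subtracted from its 8 arrays. For *Ces1f* these were *Gpt2*, an alanine transaminase gene (Pearson r = 0.93), *Bckdha*, of the branched-chain ketoacid dehydrogenase (r = 0.89), and *Acsm5*, a medium-chain acyl-CoA synthetase gene (r = 0.89). For *Ces1d* they were *Art3* (r = 0.94), *Mccc2*, of leucine breakdown (r = 0.93), and *Fam13a* (r = 0.93). For *Ces2c* they were *Lcn13*, a lipocalin gene (r = 0.92), *Saa4* (r = 0.78) and *Slc17a3* (r = 0.74). *Ces2c* and these 3 genes were below the median gene in every fat depot, where such dim values could not be told from background. Their r therefore describes the livers and cannot be read as a likeness in fat. The arrays share the genotype groups and the cell makeup of each tissue, and those of different tissues may share mice. The r values therefore describe a common pattern over the arrays only. The genes like *Ces1f* and *Ces1d* differed in eWAT by 1.07 (*Mccc2*) to 2.90 (*Fam13a*) between knockout and wild-type mice, and those like *Ces2c* differed in liver by -0.54 (*Slc17a3*) to -2.15 (*Lcn13*). The genotype difference was left in the correlated values, so genes with a like difference were favoured. These differences follow from that choice and are no separate result.

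Several family members are close copies of each other, and probes of one can bind transcripts of another. How far this reached into the values was not tested, as no probe sequences were used here.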

How the data were processed

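Total RNA of 32 tissue samples (liver, eWAT, iWAT and BAT, 4 wild-type and 4 knockout mice each) was measured, 1 Affymetrix Mouse Gene 2.1 ST array per sample. The authors deposited log2 expression values, 1 table per tissue, already normalized and summarised to 1 value per gene symbol. The normalization, the way probes were summarised and the genome build are not given in the sources used here. Normalization between arrays can reduce shifts that all genes share. Entries with a blank name or a name turned into a number, 1 or 2 per table, were left out, leaving 24646 genes. All columns matched a sample, from the labels and column names.

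Genotypes were compared within each table with limma 3.58.1 (R 4.3.3, lmFit and eBayes, without covariates), with Benjamini-Hochberg adjustment over all genes and a threshold of 0.05. The 10 genes, the gene lists and the marker lists were chosen with earlier results of these data known. Named genes are *Gpr146*, the 10 genes, list genes past the threshold (at most 6 by size per list and tissue), markers set beside a result, and the 3 genes most like the 3 carboxylesterases of largest spread. Other genes, *Pnpla2* among them, were named after their values were seen. The alternatives were the methods' t-test, a block for the replicate number, array weights, a prior that was trended and robust, the removal of dim genes (mean below the median of the table), quantile normalization, equal array medians, the removal of each array and, chosen after seeing the data, arrays rich in lymphocyte or muscle genes left out (summed level above 10). The fit was tested on simulated data. Promoters are from RefSeq (GRCm38.p6). Figures were drawn with matplotlib 3.10.9.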

Additional observations from a re-analysis of the deposited data

Results flagged for a closer look

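In 80 groups of 4 mice (10 genes, 4 tissues, 2 genotypes), 6 held a mouse whose gap to its nearest neighbour took up more of the range of the group than Dixon's critical value allows, and chance gives about 1 in 20 such groups. *Ces1f* in knockout eWAT 4 was 8.13, against 7.36 in the next mouse. *Ces1f* in knockout liver 4 was 9.10, against 9.38. *Ces2e* in knockout liver 1 was 7.72, against 7.43. The other mice stood apart in dim genes, with *Ces1e* in knockout eWAT 4 at 2.82 against 2.64, *Ces1g* in knockout BAT 2, a muscle-rich array, at 2.34 against 1.496, and *Ces2c* in wild-type BAT 4 at 1.24 against 1.10.

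For 4 genes, the knockout mice were all above the wild-type mean in 1 tissue and all below it in another. The share of all genes with such a pattern was not counted, so nothing is read from this number. The gaps between the genotype differences were 1.77 for *Ces1d* between eWAT and BAT, 0.78 for *Ces1d* between iWAT and BAT, -1.01 for *Ces2c* between liver and BAT, -0.35 for *Ces2e* between liver and BAT, and -0.32 for *Ces3a* between liver and iWAT. *Ces2c* and *Ces2e* were dim in BAT. These differences between tissues were not tested.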

How the results depend on the processing

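The counts of the 10 genes are given as a description, since they were selected on the same contrasts. In eWAT they were 2 in the values reported, 3 with quantile normalization, which added *Ces1b*, and 0 with the methods' t-test, which also gave 0 calls in the lists of other family genes, ester hydrolases and receptors. In liver, 1 of the 10 genes, *Ces2a*, was called under quantile normalization, array weights, the replicate block, a robust prior with a trend and without dim genes, and 0 to 1 when 1 array was left out. The liver ester hydrolases called were 1 under quantile normalization and with the replicate block, 0 with the t-test, and 0 to 2 without 1 array. Of the receptors and factors in liver, 1 (*Pparg*) was called with dim genes left out, and 0 to 1 without 1 array. Without 1 eWAT array, 2 to 9 ester hydrolases and 1 to 6 receptors and factors were called. In iWAT, 0 to 1 other family genes (*Ces2g*), 0 to 2 ester hydrolases (*Lpl* and *Pon1*) and 0 to 2 receptors and factors (*Cebpa* and *Srebf1*) were called without 1 array, all of these without knockout 2. The median of the 10 genes moved in eWAT from 0.05 to 1.63e-05 with quantile normalization and to 0.94 with dim genes left out, which keeps 4 genes, in iWAT to 0.42 and in BAT to -0.0653 with dim genes left out, and in BAT to between -0.0215 and 0.11 without 1 array. Nothing reversed a call. The cause was not tested, beyond the smaller number of genes or arrays.

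Wild-type and knockout mice of one number are different animals. Deviations of same-numbered mice from their group means correlated above 0.1 in 1 of 4 pairs in liver and eWAT and 3 of 4 in iWAT and BAT, ranging from -0.385 to 0.669 in iWAT. A pairing was to be taken only where every pair passed, which was so in 0 of the 4 tissues, so the numbers were used as names. With the replicate block, 189 genes were called in liver in place of 163, 3405 in eWAT in place of 3758, 1 in iWAT and 0 in BAT, and *Mgll* in liver and *Pnpla2* and *Pnpla3* in eWAT lost their calls (adjusted p = 0.051, 0.063 and 0.070 from limma). Apart from *Ces2a* in liver, it changed no other call among the carboxylesterases.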
